A study of Mus musculus with 4 samples.

Results

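Trp53, the mouse gene for the transcription factor p53, and 9 of its textbook target genes were followed across the 4 libraries of a study of Lingo1 in epithelial wound repair. The 10 genes were taken from a named list, matched by symbol in the RPKM table and by Ensembl identifier in the count table, and all 10 of them were found among the 46078 genes counted. All 10 also passed the minimum for testing, 1 CPM (counts scaled by library size) in at least 1 library, which 12348 genes did. The libraries came from MLE-12 cells, a mouse alveolar epithelial line, either wild type or labelled Lingo1 KO, and RNA was taken from unscratched cells and from cells 24 hours after a scratch wound. Every condition was 1 library, so no difference between conditions has a replicate check. The labels do not say how the KO cells were made or whether they are 1 clone. The line itself was derived from lung tumours of mice carrying the SV40 large T antigen under a surfactant protein C promoter, so wild-type and KO cells share that transgene.

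In normal cells p53 is held low by MDM2, a ubiquitin ligase that marks it for destruction and whose own gene is a p53 target. DNA damage and other stresses free p53, which then raises genes that halt the cell cycle, repair DNA or trigger apoptosis. Its control is exerted largely on the protein, so the Trp53 mRNA says little about p53 activity and the target mRNAs serve as its usual readout. Large T antigen binds p53 and the retinoblastoma family of proteins. Whether the target mRNAs read out p53 activity in MLE-12 cells was not tested.

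Total counts were 26903429 and 27907279 in the unscratched and scratched wild-type libraries and 29533746 and 48333801 in those labelled KO, so the values of the last are the most precise. Lingo1 itself was counted at 46.4 and 42.9 CPM in wild type and 41.2 and 41.4 CPM in the libraries labelled KO. Its mRNA therefore gives no check of the genotype labels, which are used here as given. Of 12 alveolar epithelial markers, 8 reached 1 CPM, with summed levels of 1448 to 1576 CPM, while Sftpa1 and Sftpd had 0 reads. The surfactant genes Sftpb (25.4 and 22.9 against 107 and 93.5 CPM) and Sftpc (5.68 and 6.42 against 20.6 and 19.8 CPM) were higher in the libraries labelled KO, while Cdh1 and Krt8 made up most of the sum. Ptprc, which marks leukocytes, and the endothelial gene Cdh5 had 0 reads in every library. Of 6 endothelial markers only Tek reached 1 CPM, at 179 to 219 CPM. Of 8 leukocyte markers only Cd68 did, at 1.57 to 1.90 CPM. Among fibroblast and airway markers, Col1a1 was at 16.5 and 21.3 CPM in wild type against 177 and 197 CPM in the libraries labelled KO, and Muc5b at 9.64 and 10.2 against 58.5 and 77.1 CPM. The summed level of 6 airway markers was 12.2 and 13.4 CPM in wild type against 64.7 and 83.9 CPM. That of 8 fibroblast markers, mostly Dcn, was 2838 and 2869 against 2663 and 2913 CPM. Sftpb, Sftpc, Col1a1 and Muc5b move with the genotype, as do several genes below, and their part in those differences was not tested.

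The stretches below show where the p53 consensus falls near the start sites of these genes. The p53 half-site consensus is a core CNNG, with A or T at its 2 inner places, between 3 purines and 3 pyrimidines, and it reads the same on both strands. A full site is a pair of half-sites, here searched with no spacer and at most 2 mismatches over 20 bases. RefSeq promoter windows (GRCm38.p6, 250 bases before to 50 after a start site) were found for 8 of the 10 genes, not for Pmaip1 and Trp53inp1. Each line is the strand of the gene, 5′ to 3′, with the matches in capitals.
Cdkn1a (chr17:29090886-29090967, plus strand): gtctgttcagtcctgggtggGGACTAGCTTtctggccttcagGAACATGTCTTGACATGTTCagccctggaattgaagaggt
Ccng1 (chr11:40755442-40755501, minus strand): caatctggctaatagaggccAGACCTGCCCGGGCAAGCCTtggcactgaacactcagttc
Mdm2 (chr10:117710915-117710964, minus strand): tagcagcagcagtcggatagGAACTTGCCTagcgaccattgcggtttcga
Bax (chr7:45467070-45467119, minus strand): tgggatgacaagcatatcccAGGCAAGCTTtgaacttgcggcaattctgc
Aen (chr7:78895917-78895966, plus strand): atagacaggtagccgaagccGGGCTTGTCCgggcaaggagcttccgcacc
Trp53 (chr11:69580264-69580313, plus strand): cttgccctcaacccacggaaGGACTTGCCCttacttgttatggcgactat

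An exact half-site lay in a window of 6 of the 8 genes, Trp53, Cdkn1a, Mdm2, Aen, Ccng1 and Bax, and of 9.55% of the 27025 genes with a window. Cdkn1a and Ccng1 also held a full site, each with 1 mismatch. A full site with at most 2 mismatches was found for 0.94% of all genes with a window. In Cdkn1a the full site began 51 bases before the upstream of 2 annotated start sites, and the window of the other start, 2790 bases downstream, held no match. In Ccng1 it began 195 bases before the start. The Aen match is 1 genomic position seen in 2 overlapping windows, 10 bases after one start and 121 before the other. The windows of Plk2 and Phlda3 held none. Among the 62 other listed p53 targets with a window, 10 held a half-site and 4 a full site (Gtse1, Ckap2, Zfp365 and Rps27l). A match to these letters describes the sequence and does not show binding.

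**Figure D1:**
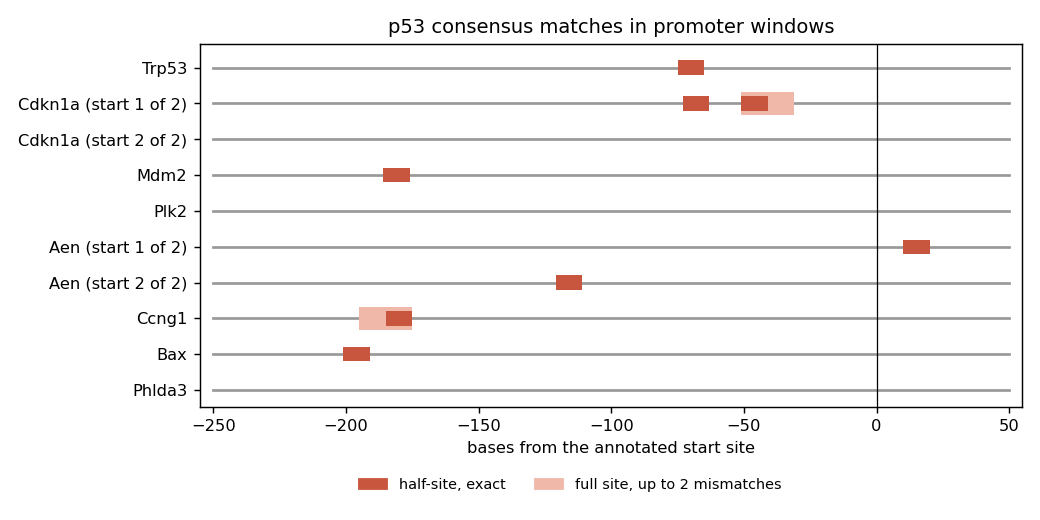
Matches to the p53 consensus along promoter windows of 8 genes, with the distance from the annotated start site in bases on the horizontal axis and 1 line per window. Dark boxes are exact half-sites and pale boxes full sites with up to 2 mismatches; only Cdkn1a and Ccng1 carry a full site.

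Per length, the genes fell into a high, a middle and a low group. On the deposited RPKM scale (reads scaled by gene length and library size), which allows genes to be set beside each other, Bax ranged from 46.1 to 57.0, Plk2 from 38.7 to 60.2 and Trp53 from 39.6 to 44.3 over the 4 libraries. Bax lay above Trp53 in every library, and Plk2 overlapped both. Ccng1 followed at 21.7 to 22.7, Mdm2 at 19.3 to 22.5 and Phlda3 at 16.2 to 20.2. Ccng1 was the fourth in every library, while Mdm2 and Phlda3 exchanged places. Trp53inp1 stood apart at 6.59 to 8.97. Aen (2.58 to 4.07), Cdkn1a (2.23 to 3.80) and Pmaip1 (2.46 to 3.53) were the lowest and changed places among themselves. By its mean RPKM, Trp53 lay above 87.6% of the genes with RPKM values and Cdkn1a above 35.8%.

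**Figure D2:**
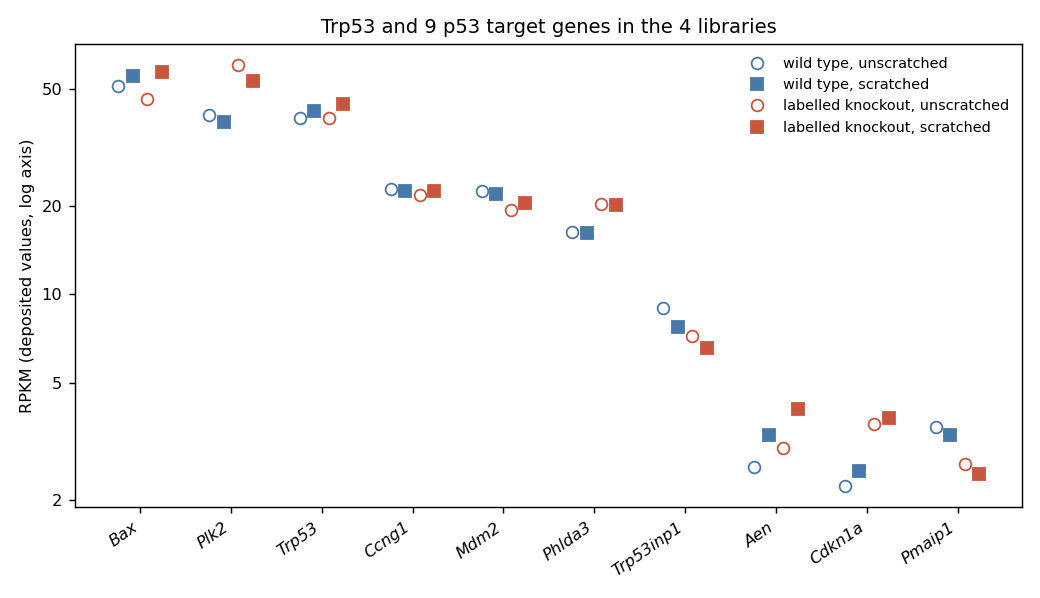
Deposited RPKM (log axis) of the 10 genes in the 4 libraries, ordered by mean; each point is 1 library, blue for wild type and red for the libraries labelled KO, open for unscratched and filled for scratched cells. Both red points lie above both blue points for Plk2, Phlda3 and Cdkn1a and below both for Mdm2, Trp53inp1 and Pmaip1. The share of all genes with such a split was not computed, so it is not read as a trait of these genes.

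Trp53 mRNA was level between the genotypes in unscratched cells. The gene (chromosome 11, 69580359 to 69591873, plus strand, mm10) was counted at 130 and 138 CPM in unscratched and scratched wild-type cells and at 130 and 146 CPM in the cells labelled KO. The scratched library was the higher one in each genotype, and the unscratched values of the genotypes nearly coincided. The KO to wild-type ratio in unscratched cells was 0.999 (95% interval 0.954 to 1.05), and in scratched cells 1.06 (1.02 to 1.10). Here and below, intervals are exact Clopper-Pearson intervals on the split of the counts. They cover counting error only and may be too narrow, since the reads carry no molecular identifiers. Its processed pseudogene Trp53-ps had 0 reads in every library.

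Mdm2, the ligase that restrains p53, was lower in both libraries labelled KO by a small margin. The gene (chromosome 10, 117688875 to 117710758, minus strand) stood at 70.3 CPM in unscratched and 69.1 CPM in scratched wild-type cells. In cells labelled KO it stood at 60.7 and 64.4 CPM, both below the wild-type values. The ratios were 0.863 (0.809 to 0.921) and 0.932 (0.880 to 0.987). An additive model of genotype and scratch over all 4 libraries, with p-values from edgeR's quasi-likelihood test, Benjamini-Hochberg adjusted over all tested genes, called this fall (log2 -0.16 ± 0.05 SE, adjusted p = 0.0285). That model has 1 residual degree of freedom and takes its spread from the mismatch of the scratch responses in wild-type and KO-labelled cells. The spread of each gene is drawn toward that of all tested genes, with a median weight of 25.4 prior degrees of freedom. The p-values thus compare these libraries and not replicate cultures, and rest mostly on a spread shared over genes. Trp53 did not pass this model for the genotype (0.04 ± 0.06, adjusted p = 0.664).

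Cdkn1a had the largest genotype difference of the 10 genes. It encodes p21, the inhibitor of cyclin-dependent kinases through which p53 halts the cell cycle. The gene (chromosome 17, 29090976 to 29100727, plus strand) was counted at 4.61 and 5.20 CPM in unscratched and scratched wild-type cells, from 125 and 145 reads. In the cells labelled KO it reached 7.54 and 7.93 CPM, from 223 and 380 reads, so the genotypes did not overlap. The unscratched ratio was 1.63 (1.31 to 2.05) and the scratched one 1.53 (1.26 to 1.86), and the rise passed the additive fit (0.66 ± 0.12, adjusted p = 0.000237, edgeR quasi-likelihood test). Only 4.20% of all tested genes had a genotype difference of at least this size in either direction. Low depth makes these the widest intervals of the genes that rose. An antisense transcript annotated by GENCODE M21, not among the genes counted, shares 273 exonic bases with Cdkn1a. Without a known strand setting in the counting, its reads cannot be told apart.

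Plk2, a polo-like kinase of centriole duplication, rose beside it at a far higher level. The gene (chromosome 13, 110395046 to 110400844, plus strand) stood at 113 and 108 CPM in unscratched and scratched wild-type cells against 168 and 150 CPM in those labelled KO. Both KO-labelled values exceeded both wild-type values. The ratios were 1.49 (1.42 to 1.56) and 1.38 (1.32 to 1.44), and the additive fit gave 0.52 ± 0.06 (adjusted p = 1.79e-07, edgeR quasi-likelihood test). Ccng1, the atypical cyclin G1 that is one of the most widely used p53 reporters, was flat. The gene (chromosome 11, 40748552 to 40755311, minus strand) had 79.4 and 79.0 CPM in unscratched and scratched wild-type cells and 76.3 and 79.1 CPM in those labelled KO. Its ratios were 0.960 (0.905 to 1.02) and 1.00 (0.949 to 1.06), both intervals including 1.

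Among the genes of the apoptosis arm, Pmaip1 and Trp53inp1 fell with the KO label, Phlda3 and Aen rose, and Bax did not pass. Pmaip1 (chromosome 18, 66458533 to 66465565, plus strand) encodes NOXA, a BH3-only protein that opposes survival proteins of the BCL2 family. It was at 9.59 and 9.03 CPM in unscratched and scratched wild-type cells and at 7.23 and 6.72 CPM in those labelled KO, without overlap. The ratios were 0.754 (0.626 to 0.907) and 0.744 (0.629 to 0.881), and the gene fell in the additive fit (-0.42 ± 0.11, adjusted p = 0.00566, edgeR quasi-likelihood test). Bax, the pore-forming member of the same family, showed no such split. The gene (chromosome 7, 45461697 to 45466898, minus strand) had 55.9 and 60.9 CPM in wild type and 50.7 and 63.0 CPM in cells labelled KO, unscratched and scratched. The KO-labelled library was the lowest without a scratch and the highest after it, with ratios of 0.908 (0.844 to 0.975) and 1.03 (0.974 to 1.10). Bax shares 192 exonic bases with the annotated gene Gm45808 on its own strand, which is not among the genes counted.

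Phlda3, a pleckstrin homology protein that competes with AKT for membrane lipids, rose. The gene (chromosome 1, 135766119 to 135769136, plus strand) was at 23.2 and 23.3 CPM in unscratched and scratched wild-type cells and at 29.0 and 28.9 CPM in those labelled KO. Within each genotype the pair of libraries was nearly identical. The ratios were 1.25 (1.12 to 1.38) and 1.24 (1.13 to 1.36), with 0.31 ± 0.08 in the additive fit (adjusted p = 0.00479, edgeR quasi-likelihood test). Aen, a nuclease that enhances apoptosis, rose too (0.26 ± 0.09, adjusted p = 0.0325). The gene (chromosome 7, 78895854 to 78911209, plus strand) had 12.7 and 16.5 CPM in unscratched and scratched wild-type cells and 14.8 and 20.2 CPM in those labelled KO. Here the scratched wild-type library exceeded the unscratched KO-labelled one, so the genotypes overlap unless cells of like treatment are compared, where the ratios were 1.17 (1.01 to 1.35) and 1.23 (1.10 to 1.38).

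Trp53inp1, a nuclear stress protein that assists p53 and takes part in autophagy, fell. The gene (chromosome 4, 11156431 to 11174379, plus strand) was at 48.5 and 41.9 CPM in unscratched and scratched wild-type cells and at 39.2 and 35.9 CPM in those labelled KO. Each scratched value was below its unscratched partner and each KO-labelled value below both wild-type ones. The KO to wild-type ratios were 0.808 (0.746 to 0.875) and 0.857 (0.795 to 0.924), and the additive fit gave -0.26 ± 0.06 (adjusted p = 0.00254, edgeR quasi-likelihood test).

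**Figure D3:**
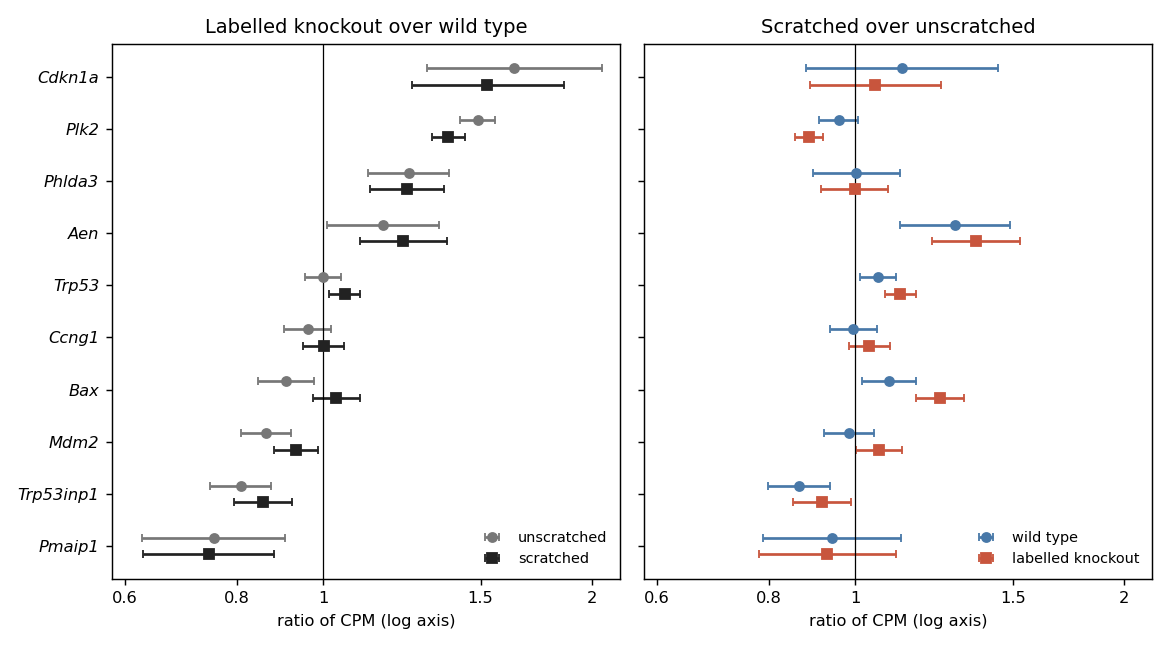
Ratio of CPM (log axis) for each gene, KO-labelled over wild type on the left and scratched over unscratched on the right; points are ratios of 1 library to 1 library and bars exact 95% counting intervals. On the left the intervals of Cdkn1a, Plk2, Phlda3 and Aen lie above 1 and those of Mdm2, Trp53inp1 and Pmaip1 below 1 in both treatments.

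By the additive fit, the KO label went with a rise of 4 of the 10 genes and a fall of 3, while Trp53, Ccng1 and Bax did not pass. Over all tested genes 13.8% rose and 12.2% fell, so the 10 genes were called more often by this fit, but in both directions. They were chosen with earlier results of these data known, so that excess is not read as a trait of them. Their median log2 difference of 0.01 was near that of all tested genes, 0.00. The same 7 genes were those whose counting intervals excluded 1 in the same direction in both KO comparisons, as 31.0% of tested genes did. Those comparisons share no library with each other. The additive fit uses the same 4 libraries, so its match with them is no separate support. None of the 10 genes differed by at least 2-fold with an interval excluding 1, without a scratch or after it. Such differences were seen for 2.24% and 1.90% of tested genes. With DESeq2's Wald test on the same design only Plk2 passed, and the adjusted p of Cdkn1a was 0.118. With limma on the RPKM values 5 passed, without Mdm2 (adjusted p = 0.0734) and Aen (0.0959).

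The scratch moved fewer of these genes. Aen rose (0.41 ± 0.09 on the log2 scale, adjusted p = 0.0103, edgeR quasi-likelihood test), to 1.29 times its unscratched level in wild type (1.12 to 1.49) and 1.36 times in cells labelled KO (1.22 to 1.53). Bax rose as well (0.22 ± 0.06, adjusted p = 0.0264), by 1.09 times (1.02 to 1.17) and 1.24 times (1.17 to 1.32). Neither passed with DESeq2 or with limma on RPKM values, where the adjusted p of Aen was 0.765 and 0.125 and that of Bax 1.00 and 0.175. By the main fit 1.47% of all tested genes rose after the scratch and 1.44% fell, 181 and 178 genes, and with library sizes alone as the scaling 125 rose and 187 fell. The other 8 genes did not pass, and none of the 10 differed by 2-fold, against 0.858% of tested genes in wild type and 0.267% in cells labelled KO. Counting intervals excluded 1 in both genotypes for Trp53, Aen and Bax, higher, and for Trp53inp1, lower, against 13.7% of tested genes. For Trp53 the scratched to unscratched ratios were 1.06 (1.01 to 1.11) and 1.12 (1.08 to 1.17), with 0.13 ± 0.06 and adjusted p = 0.279 in the additive fit. For Trp53inp1 they were 0.865 (0.799 to 0.937) and 0.917 (0.851 to 0.989), with -0.17 ± 0.06 and adjusted p = 0.173.

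The remaining 6 genes did not pass for the scratch. Cdkn1a stood at 1.13 times (0.881 to 1.44) and 1.05 times (0.890 to 1.25) its unscratched level, and Mdm2 at 0.983 (0.923 to 1.05) and 1.06 (1.00 to 1.13). Ccng1 was at 0.995 (0.937 to 1.06) and 1.04 (0.984 to 1.09), and Phlda3 at 1.00 (0.897 to 1.12) and 0.998 (0.915 to 1.09). Plk2 was at 0.958 (0.911 to 1.01) in wild type and 0.888 (0.856 to 0.921) in cells labelled KO. Pmaip1 was at 0.942 (0.789 to 1.12) and 0.930 (0.780 to 1.11). The scratch response of no gene of the 10 differed between the genotypes by 2-fold beyond counting error, as it did for 0.818% of tested genes.

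Of 23 tested genes of the p53 family and its regulators, Mdm2 included, 3 rose and 4 fell with the KO label, 30.4% against 26.0% of all tested genes. Trp53bp1, a scaffold at DNA breaks, rose by 0.33 ± 0.05 (adjusted p = 1.52e-05, edgeR quasi-likelihood test), and Mdm4, the partner of MDM2 that masks p53, by 0.26 ± 0.06. Ppm1d, the phosphatase WIP1 that dampens p53 signalling and is itself a p53 target, fell by 0.27 on the log2 scale (SE 0.05). Mdm2 and Mdm4 thus differed from wild type in opposite directions. After the scratch Mdm4 fell (-0.22 ± 0.06) and so did Atm, the kinase that signals DNA breaks (-0.19 ± 0.05, adjusted p = 0.0477). Trp63, the p53 relative of basal epithelia, was named after its values were seen: it was counted at 30 and 39 reads, 1.11 and 1.40 CPM, in unscratched and scratched wild-type cells and 3.21 and 2.76 CPM in those labelled KO. It was the third gene to rise with the KO label (1.24 ± 0.23, adjusted p = 0.000201, edgeR quasi-likelihood test). Its ratios were 2.90 (1.91 to 4.53) and 1.97 (1.37 to 2.89).

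**Figure D4:**
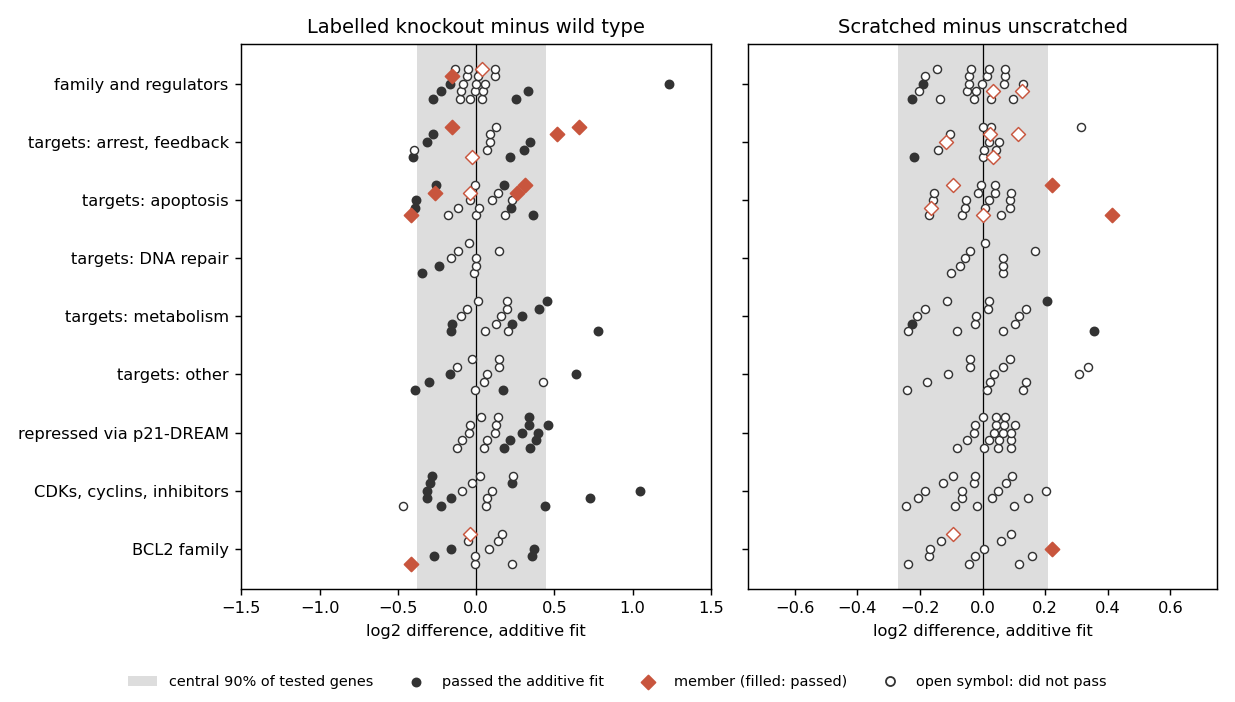
Log2 differences from the additive fit for tested genes of 9 lists, KO-labelled minus wild type on the left and scratched minus unscratched on the right; each symbol is 1 gene, red diamonds are the 10 genes described above, filled symbols passed the test and the grey band holds the central 90% of all tested genes. Notch1, which has 0 reads in wild type, lies off the scale; among the genes repressed through p21 and DREAM every filled symbol on the left is above 0.

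A wider list of 82 p53 targets, of which 74 were tested, also held calls in both directions. With the KO label 18 rose and 16 fell, 45.9% in all, against 26.0% of all tested genes. This list and the others here were likewise chosen with earlier results of these data known. The median log2 difference was 0.05 without a scratch and 0.01 after it, against 0.01 and 0.00 over all tested genes. Leaving out the genes above, 14 of 65 rose and 13 fell. After the scratch 4 of the 74 rose and 2 fell, 8.11% against 2.91% of all tested genes. With the KO label, 5 of 15 tested arrest and feedback genes rose and 4 fell, and of 21 apoptosis genes 5 rose and 5 fell. Of 16 metabolic genes 5 rose and 2 fell, and of 14 others 3 rose and 3 fell. Of 9 DNA repair genes 2 fell and none rose.

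Named targets illustrate both directions. The adenylate kinase Ak1 (0.78 ± 0.11), the xylulose reductase Dcxr (0.45 ± 0.13) and the lipid phosphatase Lpin1 (0.40 ± 0.11) rose. Perp, a desmosomal membrane protein needed for p53-dependent apoptosis in some cells, fell from 168 and 158 CPM in unscratched and scratched wild-type cells to 127 and 123 CPM (-0.39 ± 0.06). Pidd1, which activates caspase-2 (-0.39 ± 0.09), the TNF receptor Tnfrsf1b (-0.39 ± 0.06) and the tetraspanin Cd82 (-0.30 ± 0.06) fell too. The repair genes Fancc (-0.35 ± 0.09) and Pcna (-0.23 ± 0.06) were the 2 that passed in their group. Among the 74, only Notch1 differed by 2-fold beyond counting error in the KO comparisons. It had 0 reads in both wild-type libraries and 79 and 113 in those labelled KO, at least 24.1-fold and 21.9-fold more than the level of 3 counts in the matching wild-type library. It was picked out after its values were seen.

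After the scratch the metabolic targets Sesn2 (0.36 ± 0.08), a sestrin that restrains mTORC1, and Tigar (0.20 ± 0.06), a sugar phosphatase, rose beside Aen and Bax. Sesn2 went from 18.6 to 23.8 CPM in wild type and from 18.8 to 24.0 CPM in cells labelled KO. Ddit4, the mTORC1 inhibitor REDD1 (-0.22 ± 0.06), and the antiproliferative gene Tob1 (-0.22 ± 0.06) fell. These 6 were all the targets that passed for the scratch.

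Around p21, the other genes of the G1 machinery moved in both directions. Of 18 tested inhibitors, kinases, cyclins and pocket proteins, 4 rose and 6 fell with the KO label, 55.6% against 26.0% of all tested genes. Cdk6 had the largest difference (1.05 ± 0.10, adjusted p = 3.46e-09, edgeR quasi-likelihood test) at 2.08 times the wild-type CPM in unscratched cells (1.78 to 2.42) and 2.07 times in scratched cells (1.80 to 2.37). Cyclin D2 (Ccnd2) rose by 0.73 ± 0.06 and cyclin E1 (Ccne1) by 0.44 ± 0.11. Of the other listed CDK inhibitors 4 fell, Cdkn1b, Cdkn2a, Cdkn2b and Cdkn2c, where 12.2% of all tested genes fell. Cdkn1c (-0.47 ± 0.19) and Cdkn2d (0.10 ± 0.05) did not pass. Of the 4 that fell, 3 are given here, picked for their abundance after the values were seen. Cdkn1b, the gene for p27, was at 548 and 463 CPM in wild type and 408 and 404 CPM in cells labelled KO. Cdkn2c was at 483 and 464 against 377 and 383 CPM, and Cdkn2a, whose locus encodes both p16 and the MDM2 antagonist ARF, at 237 and 193 against 187 and 179 CPM. Their adjusted p in the additive fit was 0.000360, 0.000128 and 0.00770.

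Genes that p53 is known to repress through p21 and the DREAM complex are mostly mitotic. Of 19 such genes, 9 rose with the KO label and 0 fell by the additive fit, against 13.8% and 12.2% of all tested genes, and 0 passed for the scratch. E2f1 and Mcm5 did not pass, but their KO to wild-type ratios were below 1 beyond counting error in unscratched and scratched cells, 0.890 and 0.951 for E2f1 and 0.926 and 0.953 for Mcm5. The median log2 differences of the 19 genes were 0.24 without a scratch and 0.11 after it, against 0.01 and 0.00 over all tested genes. Cenpf (0.46 ± 0.07), cyclin B1 (Ccnb1, 0.39 ± 0.06) and the checkpoint kinase Bub1b (0.38 ± 0.06) led. Cdkn1a and the 9 genes that rose were thus higher in the same libraries. Of the 19, 3 lay below wild type without a scratch and 6 after it. Cdca8 was among the latter, with a scratched KO to wild-type ratio of 0.924 (0.885 to 0.965).

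In the BCL2 family 2 of 13 tested genes rose and 3 fell with the KO label, where 13.8% of all tested genes rose and 12.2% fell. The survival gene Bcl2l1 (0.36 ± 0.06) and the BH3-only gene Bmf (0.37 ± 0.07) rose, and Pmaip1 fell together with Bcl2l11 (BIM) and Mcl1, the survival protein that NOXA binds. Both were named after their values were seen, like Bak1 and Bbc3. Mcl1 was at 201 and 192 CPM in unscratched and scratched wild-type cells and 175 and 176 CPM in those labelled KO. Bak1, the partner of Bax in pore formation, was at 49.0 and 54.8 CPM in wild type and 48.9 and 54.4 CPM in cells labelled KO and did not pass for either term. Bbc3 (PUMA), another p53-driven BH3-only gene, was at 4.61 and 3.05 CPM in unscratched and scratched wild-type cells and 4.16 and 4.63 CPM in those labelled KO, and passed for neither term. The scratched wild-type library was the low one: its ratio to unscratched cells was 0.661 (0.496 to 0.877), and the KO to wild-type ratio after the scratch was 1.52 (1.18 to 1.98).

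Relatives of the 10 genes moved with them in some cases and not in others. Plk3, a second p53-responsive polo-like kinase, fell (-0.40 ± 0.10, adjusted p = 0.00367, edgeR quasi-likelihood test) while Plk2 rose. Plk1 rose as Plk2 did (0.29 ± 0.06), and Plk4 passed for neither term. Both were named after their values were seen. The scratched to unscratched ratio of Plk4 was 0.430 (0.272 to 0.666) in wild type, from 31 and 70 reads. In cells labelled KO it was 0.907 (0.653 to 1.27). Trp53inp2 rose (0.29 ± 0.06) while Trp53inp1 fell. Ccng2 was at 81.1 to 93.2 CPM over the libraries and did not pass, like Ccng1. Phlda1 did not pass (0.16 ± 0.07, adjusted p = 0.0848), but its ratios of 1.12 (1.03 to 1.23) and 1.12 (1.03 to 1.21) were above 1 like those of Phlda3, and Phlda2 had 0 reads. Isg20l2, a relative of Aen, rose as Aen did (0.22, adjusted p = 0.00491), and Isg20 did not pass.

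Among 8954 protein-coding genes with at least 10 CPM in every library, those with the profile nearest to that of Cdkn1a over the 4 libraries were Aldoa, Cd44, Prdx6, Ahcy and Dlgap4. Likeness was the root mean square distance between log2 CPM values, each centred on the mean of its gene, and ranged from 0.02 for Aldoa to 0.05 for Dlgap4. Aldoa, for example, was at 218 and 241 CPM in unscratched and scratched wild-type cells and 358 and 370 CPM in those labelled KO. With only 4 libraries, a gene with a like step between the genotypes comes close to this profile. How many genes do so was not counted.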

How the data were processed

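The authors deposited raw read counts for 46078 Ensembl genes, and RPKM values for 14844 genes (161 left blank). Per the submitters' processing notes, the tools included STAR 2.7.9a, Trimmomatic 0.39, edgeR 3.32.1 and HTSeq 0.11.3, and the build was mm10. Which annotation release was counted, and whether strand was used, is not given in the sources used here. Each column name gave the genotype and S for scratched; N was taken to mean unscratched. Positions came from GENCODE M21, promoter windows from RefSeq.

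Counts were scaled with TMM factors (0.991 to 1.01). A gene was called 2-fold different when its 95% ratio interval excluded 1 and its log2 CPM values (prior count 2) lay 1 or more apart. The difference of scratch responses used a 95% counting interval on the 4 counts. The additive model was fitted with edgeR 4.0.16 (R 4.3.3) over 12348 genes at an adjusted p of 0.05. SE is the log2 difference divided by the square root of F. On simulated counts for its genotype term over 12348 genes, 48% of 1.25-fold, 88% of 1.5-fold and 98% of 2-fold changes were recovered. The simulation gave every gene the same spread beyond counting error, with no scratch effect and no mismatch of scratch responses. Its rates therefore do not give the recovery in the real libraries. DESeq2 1.42.0, limma 3.58.1 on log2(RPKM + 0.1), other scalings, filters and prior counts were alternatives. Genes of each list were named by the largest passing differences (up to 3 per term, at least 5 CPM). The 10 genes, lists and tests were chosen with earlier results of these data known. With 1 library per condition, p-values measure only the spread between these libraries. The values of 1 listed target are not reported here.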

Additional observations from a re-analysis of the deposited data

Results flagged for a closer look

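The scratch response differed between the genotypes beyond counting error for 2 of the 10 genes, by less than the 2-fold minimum. The share of all tested genes that did so without a fold minimum was not computed. The count is therefore not read as a trait of the 10 genes. Bax rose more in cells labelled KO, with a difference of log2 responses of 0.19 (95% counting interval 0.05 to 0.32). Plk2 fell further there, with a difference of -0.11 (-0.20 to -0.02). With 1 library per condition these differences have no replicate check, and a spread between cultures was not tested.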

How the results depend on the processing

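The 7 calls for the KO label and the 2 for the scratch were the same genes with library sizes only, with DESeq2 size factors, without the filter on low counts and with a minimum of 5 CPM. DESeq2's Wald test left 1 gene (Plk2) for the KO label and 0 for the scratch, and limma on RPKM values left 5 and 0; the cause was not tested. Over all genes DESeq2 called 968 for the KO label against 3205 with edgeR, and 41 for the scratch against 359. At a fold minimum of 1.5 in place of 2, 1 of the 10 genes was called in each KO comparison (Cdkn1a in both) and 0 in either scratch response. Of 280 single-gene values recomputed, 268 kept their call or its absence and 12 lost their call under DESeq2 or limma. Most of the 280 had no call to lose. The sign changed in 6 values near 0, of Ccng1 (KO to wild type, scratched) and Phlda3 (scratch response, wild type), with total counts, DESeq2 size factors or RPKM. The medians of the wider target list after the scratch, 0.003 in wild type and 0.0003 in cells labelled KO, changed sign with total counts (-0.004 and -0.02), DESeq2 size factors (-0.0008 and -0.008) and RPKM (-0.002 and -0.007). In cells labelled KO the sign also changed with a minimum of 5 CPM and without the 10 genes (-0.003 in each). Leaving out the 10 genes, added after the data were seen, gave medians of 0.06 and 0.01 for the KO comparisons. No paired analysis was possible because each condition has 1 library, so no replicate number can serve as a block. Depth limits Cdkn1a, Pmaip1 and Aen most, with 125 to 969 reads per library.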
